A study of Mus musculus with 12 samples.

Results

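Keratinocytes make small proteins that act against microbes or alert other cells to damage, and 7 of their genes are described here among the 54532 genes listed for the series: 2610528A11Rik, Defb14, S100a8, S100a9, BC100530, Slpi and Lcn2. The list was set by gene name, but it was selected on earlier results of these same libraries. Defb14 and BC100530 headed an earlier ranking of genes lower in the cortical than in the total fraction of wounded cells, and 2610528A11Rik was among the top 5 genes higher after wounding in the total fraction and among the top 5 for a cortical-to-total ratio that differed after wounding. Those 3 comparisons are therefore given as descriptions: no p-value of a member is printed for them, and where members past the threshold are counted in them, nothing is read from the count. For 2610528A11Rik no p-value is given anywhere, because the comparison that chose it used all 4 groups. The other 2 comparisons share libraries with those 3, so they are not independent of them.

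The libraries came from cultured mouse keratinocytes that carried a fusion of residues 1 to 584 of desmoplakin (DP, a protein of the desmosome) with the biotin ligase BirA, labelled as genotype WT DP-BirA(1-584). Cells of every group were kept without calcium until confluent, then received calcium to differentiate and doxycycline at 2 µg/mL to switch the fusion on. They were scratch wounded or left unwounded and given biotin for 16 h. Ribosome-associated RNA from sucrose gradients was split on neutravidin, a biotin-binding resin, into a captured cortical fraction and a depleted fraction called total. With 3 libraries for each fraction of unwounded and of wounded cells, there were 4 groups. The titles call the libraries biological replicates, and the labels do not name separate animals, lines or clones, so the spread between libraries may in part be technical. In cultures measured whole, fewer cells making an mRNA and less mRNA per cell cannot be told apart.

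Library totals ran from 8980013 to 23457548 counts. Wounded total replicate 1 stood apart: 13117 genes were detected in it and 14393 to 16867 in each of the rest, and 32.7% of its genes expected at 10 to 20 counts had none, against 0.506% to 24.8% elsewhere. The keratinocyte markers Krt5 and Krt14 lay at 3707 CPM or more in every library. CPM is the usual count scale relative to library size, here with TMM scaling. Of the markers of differentiated layers, Krt1 reached at most 1.84 CPM, and Krt10 lay at 16.0 to 32.7 CPM. S100a8, S100a9 and Lcn2 are also neutrophil genes. Of the 11 other neutrophil markers, 4 (Mpo, Camp, Csf3r and Itgam) had no count in any library, and the sum of all 11 was 0.921 to 2.09 CPM in unwounded total, 0.102 to 1.505 in unwounded cortical, 1.36 to 2.70 in wounded total and 1.22 to 3.38 in wounded cortical libraries. Of 9 macrophage and leukocyte markers, 5, among them Lyz2 and Adgre1, had no count. Their sum, nearly all of it Cd68, was 21.0 to 25.2 CPM in unwounded total, 17.8 to 21.6 in unwounded cortical, 43.2 to 58.7 in wounded total and 33.0 to 38.6 in wounded cortical libraries. The 8 keratinocyte markers together also differed by group, with 9920 to 10977 CPM in unwounded total, 14612 to 14696 in unwounded cortical, 16575 to 19039 in wounded total and 19971 to 20289 in wounded cortical libraries. The part of these shifts in the results that follow was not tested.

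Epithelial host defence rests on several kinds of molecule. Defb14 encodes a beta-defensin, a cationic peptide held by disulfide bonds that can permeabilise microbial membranes. 2610528A11Rik, also named Gpr15l, encodes a small basic secreted peptide that is a ligand of the lymphocyte receptor Gpr15. S100a8 and S100a9 encode the subunits of calprotectin, which has no signal peptide, withholds metal ions from microbes and acts as an alarmin when released. BC100530 is a stefin A-like gene, whose family inhibits cysteine cathepsins, and Slpi encodes a secreted inhibitor of serine proteases such as neutrophil elastase. Lcn2 encodes lipocalin, which binds bacterial siderophores and so limits iron uptake.

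All 7 are short coding sequences. They have 67 (Defb14), 78 (2610528A11Rik), 89 (S100a8), 97 (BC100530), 113 (S100a9), 131 (Slpi) and 200 (Lcn2) codons, against a median of 461 over 11450 tested genes with a coding sequence. The cationic peptides and Slpi also stand out in cysteine content, counted over the whole precursor. Cysteine makes up 8.97% of the residues of 2610528A11Rik, 8.96% of those of Defb14 and 12.98% of those of Slpi, against a median of 1.89%. The net charge, counted as lysine and arginine minus aspartate and glutamate over the whole precursor, is 14 for 2610528A11Rik, 12 for Defb14 and 13 for Slpi, against a median of -1. These charges exceed those of 88.6%, 85.9% and 87.3% of the tested genes with a coding sequence, in that order. The net charge is -5 for S100a8, -1 for S100a9, -1 for BC100530 and 4 for Lcn2.

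The coding sequences of the 3 members that the earlier rankings picked are shown from GENCODE M21 (GRCm38), 5′ to 3′. Capitals mark cysteine codons in the first and second, 7 in 2610528A11Rik and 6 in Defb14. In BC100530 they mark the codons 46 to 50 of the Gln-Xaa-Val-Xaa-Gly stretch by which stefins contact their target proteases.
2610528A11Rik coding sequence: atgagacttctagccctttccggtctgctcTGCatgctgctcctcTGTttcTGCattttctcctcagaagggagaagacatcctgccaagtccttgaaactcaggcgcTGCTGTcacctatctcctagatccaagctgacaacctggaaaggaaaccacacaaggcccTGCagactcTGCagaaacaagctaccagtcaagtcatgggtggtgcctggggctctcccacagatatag
Defb14 coding sequence: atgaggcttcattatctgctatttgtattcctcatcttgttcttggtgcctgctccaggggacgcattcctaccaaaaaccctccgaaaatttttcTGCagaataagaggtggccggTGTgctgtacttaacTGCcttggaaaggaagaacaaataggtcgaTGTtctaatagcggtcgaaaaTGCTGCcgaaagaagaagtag
BC100530 coding sequence: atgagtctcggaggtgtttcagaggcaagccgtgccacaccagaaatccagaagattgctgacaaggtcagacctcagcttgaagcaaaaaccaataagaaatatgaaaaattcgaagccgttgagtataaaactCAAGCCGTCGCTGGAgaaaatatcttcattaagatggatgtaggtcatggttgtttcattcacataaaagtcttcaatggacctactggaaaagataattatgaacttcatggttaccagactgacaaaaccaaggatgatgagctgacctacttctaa

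The positions, on GRCm38 (mm10 in the submitters' notes), place 2610528A11Rik on chromosome 14 (37102140 to 37114022, minus strand), Defb14 on chromosome 8 (19194357 to 19195212, plus strand) and BC100530 on chromosome 16 (36359382 to 36367748, minus strand). S100a8 (90668978 to 90670035, plus strand) and S100a9 (90692632 to 90695721, minus strand) are neighbours on chromosome 3, and Lcn2 (32384633 to 32388252) and Slpi (164354070 to 164389095) lie on the minus strand of chromosome 2. The deposited gene model of Defb14 has 204 bases and equals its coding sequence, so it holds no untranslated region and its per-length values rest on the coding part alone. Of the 790 windows of 50 bases in the BC100530 transcripts, 286 (36.2%) also occur in transcripts of BC117090, Csta1, Stfa1 or the antisense gene Gm15845. Reads from those windows cannot be assigned by sequence, and Gm15845 had no count. The other 6 members shared no such window with another gene.

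**Figure D1:**
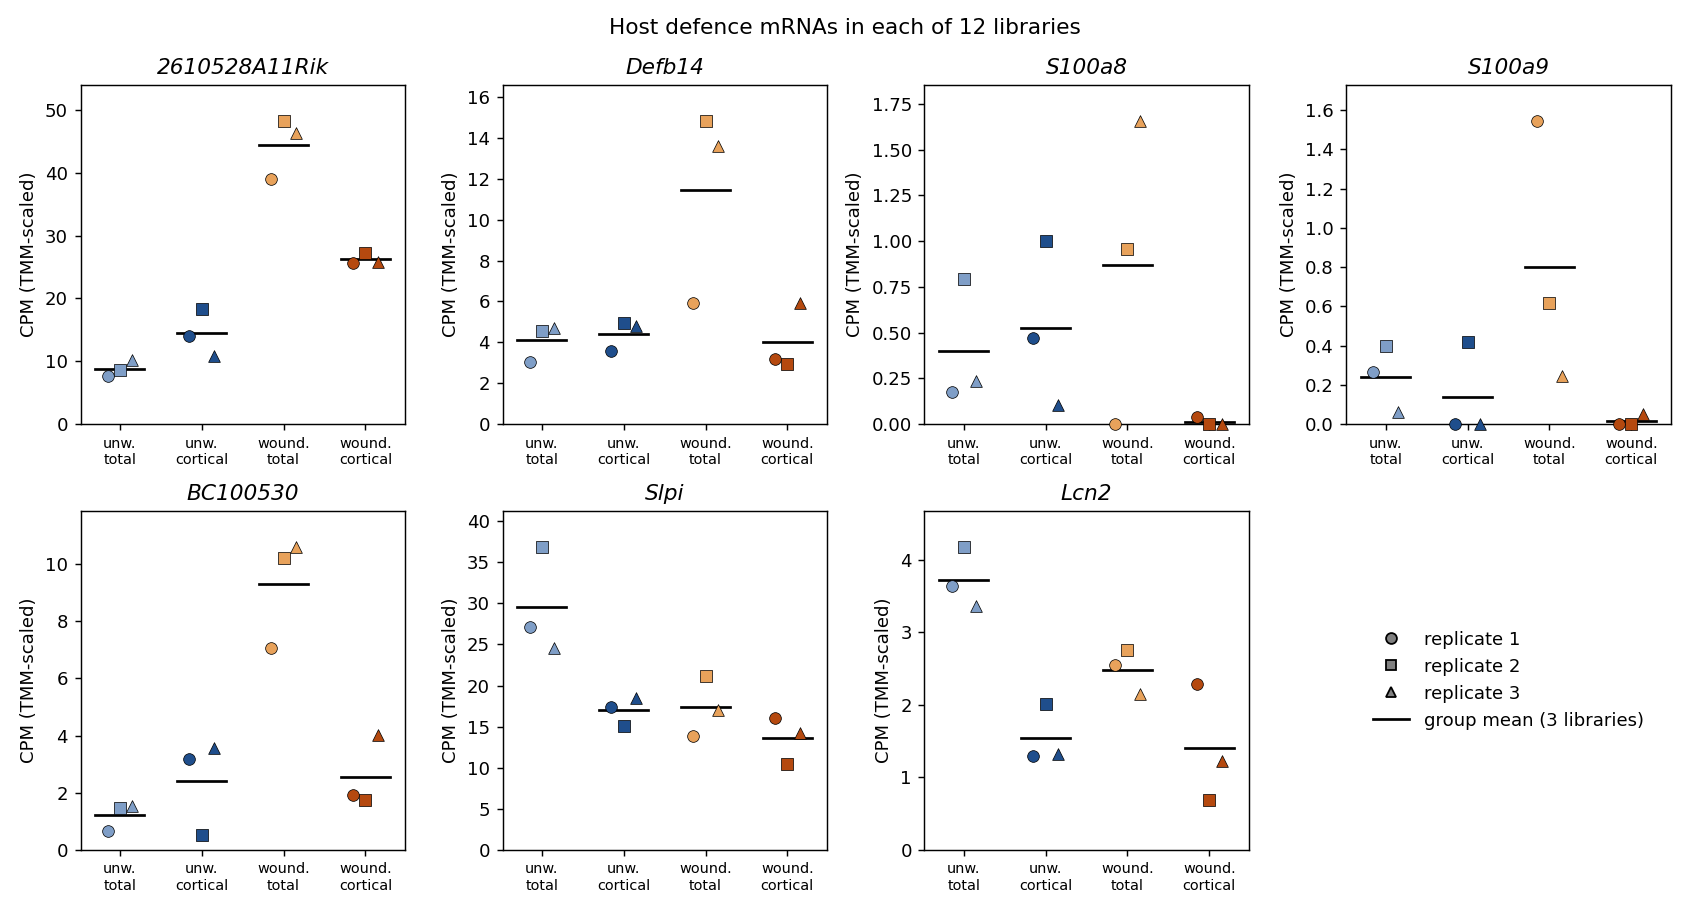
CPM after TMM scaling (vertical axis, linear, a separate scale for each gene) of the 7 host defence mRNAs in each of the 12 libraries, by group; marker shape gives the replicate number and the bar the mean of 3 libraries. 2610528A11Rik, Defb14 and BC100530 have their highest mean in the wounded total group, Slpi and Lcn2 in the unwounded total group, and S100a8 and S100a9 have at most 1 count in each wounded cortical library.

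The 2 cationic peptides come first. 2610528A11Rik measured 7.63, 8.64 and 10.3 CPM in the unwounded total libraries, 13.99, 18.4 and 10.9 in unwounded cortical, 39.0, 48.2 and 46.3 in wounded total, and 25.7, 27.2 and 25.9 in wounded cortical, each in the order of replicates 1 to 3. The 4 groups do not overlap: unwounded total is lowest, then unwounded cortical, wounded cortical and wounded total. Means were 8.84 ± 1.32 (SD, n = 3), 14.4 ± 3.77, 26.2 ± 0.802 and 44.5 ± 4.89 CPM in that order. The cortical fraction was thus above the total in unwounded cells (log2 fold change 0.71, SE 0.18) and below it in wounded cells (-0.76, SE 0.17). After wounding the mRNA was 5.04-fold higher in the total fraction (log2 2.34, SE 0.18) and 1.82-fold higher in the cortical fraction (log2 0.86, SE 0.18). The difference between those wound responses, equal to the change of the cortical-to-total ratio, was -1.48 on the log2 scale (SE 0.25) and lay between -1.63 and -1.27 over 21 alternative analyses. Without wounded total replicate 1 it was -1.56, and the wound response in the total fraction was 2.42.

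Defb14 measured 3.03, 4.57 and 4.71 CPM in unwounded total, 3.56, 4.93 and 4.78 in unwounded cortical, 5.93, 14.8 and 13.6 in wounded total, and 3.18, 2.96 and 5.93 in wounded cortical libraries. Every wounded total library is above every other library, although replicate 1, the library that stood apart, exceeds the highest wounded cortical library only at a further decimal (5.934 against 5.928 CPM). In the total fraction the mean was 4.10 ± 0.935 CPM in unwounded and 11.5 ± 4.82 in wounded cells (log2 1.48, SE 0.37, or 1.80 without wounded total replicate 1), while the cortical means were 4.42 ± 0.754 and 4.02 ± 1.66. The cortical response was -0.12 (SE 0.38, adjusted p = 0.916, edgeR quasi-likelihood), and the unwounded cortical-to-total log2 ratio was 0.10 (SE 0.38, adjusted p = 0.923). Both changed sign when 1 library was left out: the first was 0.028 without wounded cortical replicate 1 and 0.051 without replicate 2, and the second was -0.059 without unwounded total replicate 1. In wounded cells the cortical-to-total log2 ratio was -1.51 (SE 0.37), or -1.82 without wounded total replicate 1.

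The alarmin subunits were close to the detection limit. S100a8 had 4, 14 and 4 counts in the unwounded total libraries, 12, 12 and 1 in unwounded cortical, 0, 17 and 27 in wounded total, and 1, 0 and 0 in wounded cortical. S100a9 had 6, 7 and 1, then 0, 5 and 0, then 26, 11 and 4, and last 0, 0 and 1 counts in the same order. Both subunits are thus nearly undetected in wounded cortical libraries, and the wounded total libraries do not rank alike for them: replicate 1 has no S100a8 count and the most S100a9 counts. A count of 0 allows up to 3 counts, which is 0.122 to 0.189 CPM per wounded cortical library. Summed over each group, S100a8 had 44 counts in wounded total and 1 in wounded cortical libraries, a ratio per effective library size of 52.5 (95% exact interval 8.95 to 2121). S100a9 had 41 and 1, a ratio of 49.0 (8.31 to 1980). These intervals describe counting error only and not the spread between libraries, which for S100a8 includes a wounded total library at 0. Between the cortical groups S100a8 had 25 counts unwounded and 1 wounded, and the fitted difference was not called (adjusted p = 0.167, edgeR). In unwounded cells S100a8 had 25 cortical against 22 total counts (adjusted p = 0.909, edgeR), and its direction turned without unwounded cortical replicate 2 (log2 -0.39 in place of 0.40). S100a9 had too few counts to enter the fit.

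Among the protease inhibitors, BC100530 measured 0.658, 1.47 and 1.53 CPM in unwounded total, 3.17, 0.502 and 3.56 in unwounded cortical, 7.06, 10.2 and 10.6 in wounded total, and 1.91, 1.76 and 4.02 in wounded cortical libraries. Only the wounded total group lies apart from the other 3 groups, and unwounded cortical replicate 2, with 6 counts, is the lowest of all. From unwounded to wounded total the mean went from 1.22 ± 0.487 to 9.30 ± 1.94 CPM, a 7.62-fold difference (log2 2.94, SE 0.57), while the cortical means were 2.41 ± 1.66 and 2.56 ± 1.26 CPM. The cortical wound response was 0.08 (SE 0.54, adjusted p = 0.965, edgeR), and -0.38 without unwounded cortical replicate 2 or -0.40 without wounded cortical replicate 3. The cortical-to-total log2 ratio was 1.00 in unwounded cells (SE 0.57, adjusted p = 0.287, edgeR) and -1.85 in wounded cells (SE 0.53). Without wounded total replicate 1, the wounded ratio was -2.02 and the wound response in the total fraction 3.11.

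Slpi went the other way. It measured 27.2, 36.9 and 24.5 CPM in unwounded total, 17.4, 15.0 and 18.5 in unwounded cortical, 13.9, 21.1 and 17.0 in wounded total, and 16.1, 10.5 and 14.2 in wounded cortical libraries. The unwounded total group is above all others, and the other 3 groups overlap. In unwounded cells Slpi fell from 29.5 ± 6.50 CPM in the total to 17.0 ± 1.77 in the cortical fraction (log2 -0.80, SE 0.21, adjusted p = 0.015, edgeR). The call was lost without unwounded cortical replicate 2 (-0.72, adjusted p = 0.0686) or unwounded total replicate 2 (-0.60, adjusted p = 0.127), and with the gene length trend removed (-0.50, adjusted p = 0.0942). Wounded total libraries averaged 17.3 ± 3.63 CPM, 0.587 times the unwounded total mean (log2 -0.77, SE 0.20, or -0.63 without wounded total replicate 1). The cortical wound response was -0.32 (SE 0.21, adjusted p = 0.472, edgeR).

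Lcn2 had 3.64, 4.18 and 3.36 CPM in unwounded total, 1.29, 2.01 and 1.32 in unwounded cortical, 2.55, 2.75 and 2.15 in wounded total, and 2.28, 0.692 and 1.22 in wounded cortical libraries. As for Slpi, the unwounded total libraries are highest and do not overlap with the other groups. The cortical-to-total log2 ratio in unwounded cells was -1.28 (SE 0.50, adjusted p = 0.106, edgeR), which missed the threshold. It passed with DESeq2 (adjusted p = 0.04997) and with limma on log2 FPKM plus 1 (adjusted p = 0.0194) or plus 0.1 (adjusted p = 0.0458). With those 2 groups fitted alone in edgeR it passed too (adjusted p = 0.0361). In simulated data for this comparison, 20.1% of DESeq2 calls were false, against 6.43% for edgeR and 6.84% for limma on log2 FPKM plus 1. Those counts were drawn with spreads that edgeR estimated and without loss of low counts in single libraries. The shares therefore do not decide between these results for Lcn2. After wounding the total mean was 2.48 ± 0.309 against 3.73 ± 0.416 CPM (log2 -0.58, SE 0.49, or -0.60 without wounded total replicate 1), and the cortical means were 1.54 ± 0.405 unwounded and 1.40 ± 0.809 wounded (log2 -0.11, SE 0.51, adjusted p = 0.946, edgeR). The cortical value turned to 0.12 without unwounded cortical replicate 2 and 0.20 without wounded cortical replicate 2.

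**Figure D2:**
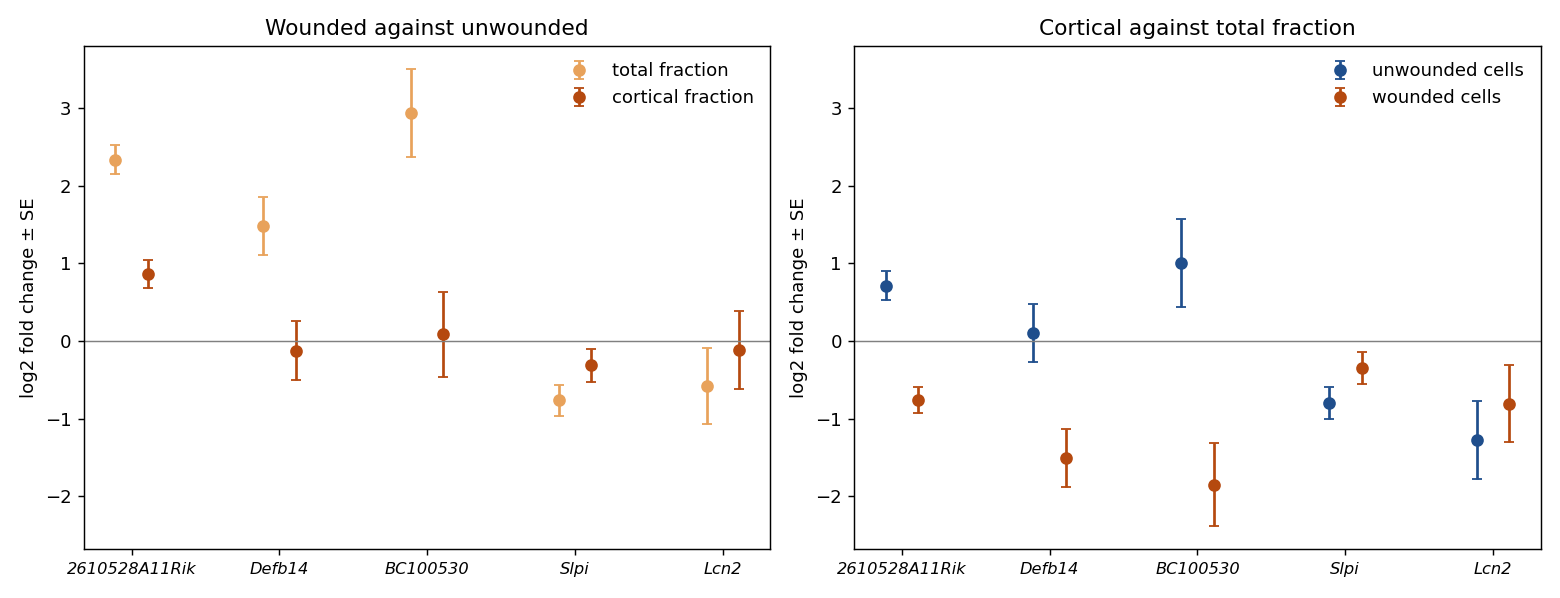
Log2 fold changes with their standard errors (vertical axis, edgeR fit to all 12 libraries) for 5 members, wounded against unwounded on the left and cortical against total on the right. 2610528A11Rik, Defb14 and BC100530 sit above 0 after wounding in the total fraction and below 0 for cortical against total in wounded cells, while Slpi and Lcn2 sit below 0 in all 4; S100a8 and S100a9 are left out because of their low counts.

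The members are set beside all genes as a description, with 6 of the 7 passing the filter on low counts. After wounding, 3 members were higher and 1 lower in the total fraction by the threshold of adjusted p under 0.05, where 8.39% of the 13571 tested genes were higher and 7.20% lower. The median log2 change was 1.30 over the 6 members, 1.48 over the 5 without S100a8, and -0.03 over all tested genes. In the cortical fraction 1.60% of all genes were higher and 0.884% lower; 0 of the 5 tested members other than 2610528A11Rik passed the threshold, and the median was -0.12 over the 6 members. For cortical against total in unwounded cells (background 6.62% higher and 7.59% lower), 0 of those 5 members were higher and 1, Slpi, was lower, with a median of 0.25 over the 6 members, or 0.10 without S100a8. In wounded cells 0 were higher and 4 were lower (background 7.62% and 8.03%), with a median of -1.16, or -0.81 without S100a8. The change of the cortical-to-total ratio was called in 0 members upwards and in 1 downwards (background 0.0221% and 0.103%). Nothing is read from the counts or medians in the 3 comparisons that chose members. In the other 2, 2610528A11Rik is left out of the counts because all 4 groups entered its choice. The medians there still include 2610528A11Rik, so nothing is read from them either. The members that passed the filter are those with enough counts in some group. The count of 4 lower members in wounded cells was 0 with the gene length trend removed and 1 to 4 when a library was left out. It was 1 without wounded cortical replicate 1, wounded cortical replicate 2 or wounded total replicate 2, and 2 without wounded total replicate 3.

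All 5 members with enough counts had a higher cortical-to-total ratio once a gene length trend was removed from each library. The deposited lengths of the members run from 204 bases (Defb14) to 2623 bases (Lcn2), and all lie below the tested median of 3873 bases. With the trend removed, the wounded cortical-to-total log2 ratio moved from -0.76 to -0.35 (SE 0.18) for 2610528A11Rik, from -1.51 to -0.81 (SE 0.29) for Defb14, from -1.85 to -1.42 (SE 0.51) for BC100530 and from -0.35 to 0.014 (SE 0.18) for Slpi. The same step raised the unwounded ratio of 2610528A11Rik from 0.71 to 1.02 (SE 0.19), so that its change of ratio stayed similar, at -1.38 (SE 0.26). For the wound response of the total fraction the values with the trend removed were 2.20 for 2610528A11Rik, 1.19 for Defb14 and 2.79 for BC100530, near the 2.34, 1.48 and 2.94 without that step.

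**Figure D3:**
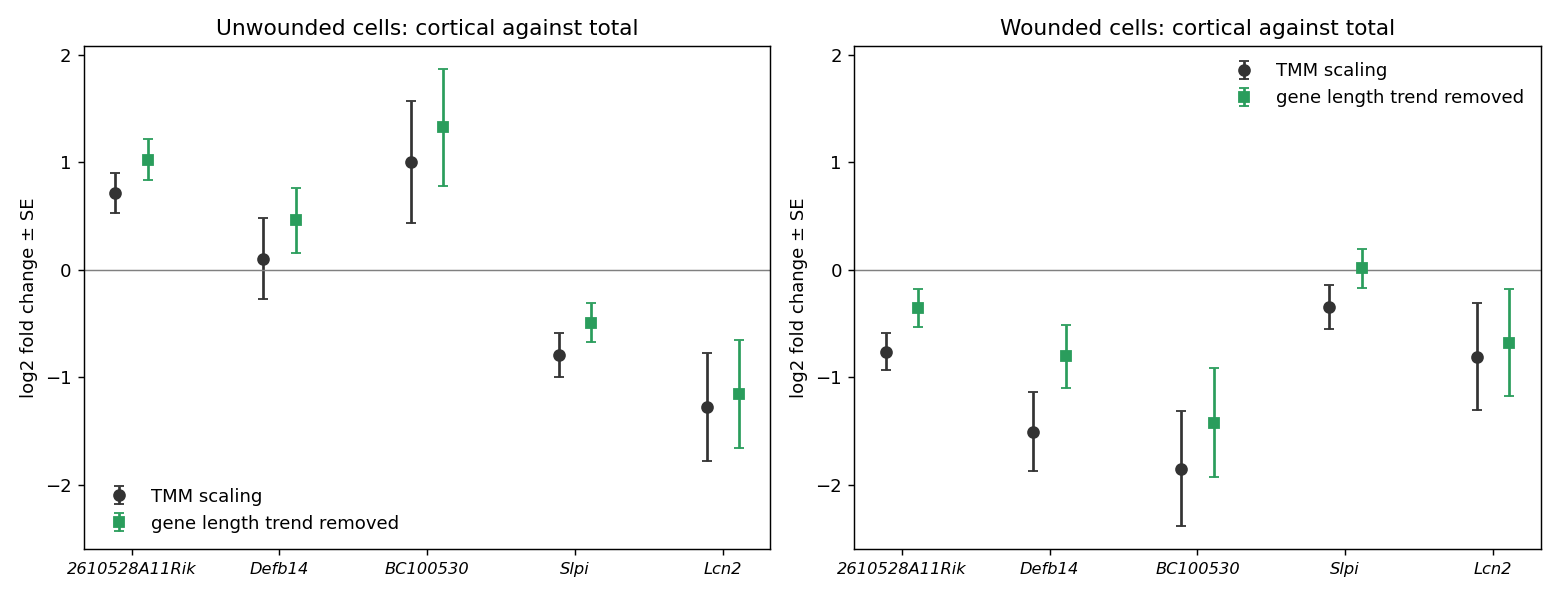
Cortical-to-total log2 fold change with standard error (vertical axis) for 5 members in unwounded (left) and wounded (right) cells, with TMM scaling (circles) and after removal of a gene length trend from each library (squares). Every value moves upward after the correction, and Slpi in wounded cells crosses 0, from -0.35 to 0.014.

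Per length, in the FPKM values that the authors deposited, the order of the members changed with wounding. In unwounded total libraries Slpi was highest at 24.5 ± 5.23 FPKM, then Defb14 at 19.8 ± 4.49, whose ranges overlap, then 2610528A11Rik at 10.5 ± 1.60, which does not overlap with Defb14. BC100530 (1.52 ± 0.604) and Lcn2 (1.39 ± 0.146) overlapped, and so did S100a8 (0.565 ± 0.474) and S100a9 (0.449 ± 0.316). In wounded total libraries Defb14 (56.3 ± 23.7) and 2610528A11Rik (53.9 ± 5.88) were highest and overlapped, followed by Slpi (14.7 ± 3.05) and BC100530 (11.8 ± 2.47), which also overlapped. S100a9 (1.54 ± 1.28), S100a8 (1.26 ± 1.20) and Lcn2 (0.949 ± 0.115) were lowest.
In unwounded cortical libraries Defb14 had the highest mean with 21.6 ± 3.74 FPKM, before 2610528A11Rik (17.4 ± 4.51) and Slpi (14.3 ± 1.52). The range of 2610528A11Rik there overlapped with that of Defb14 and with that of Slpi. In wounded cortical libraries 2610528A11Rik led with 31.2 ± 1.03, before Defb14 (19.4 ± 7.89) and Slpi (11.3 ± 2.35), without overlap.

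**Figure D4:**
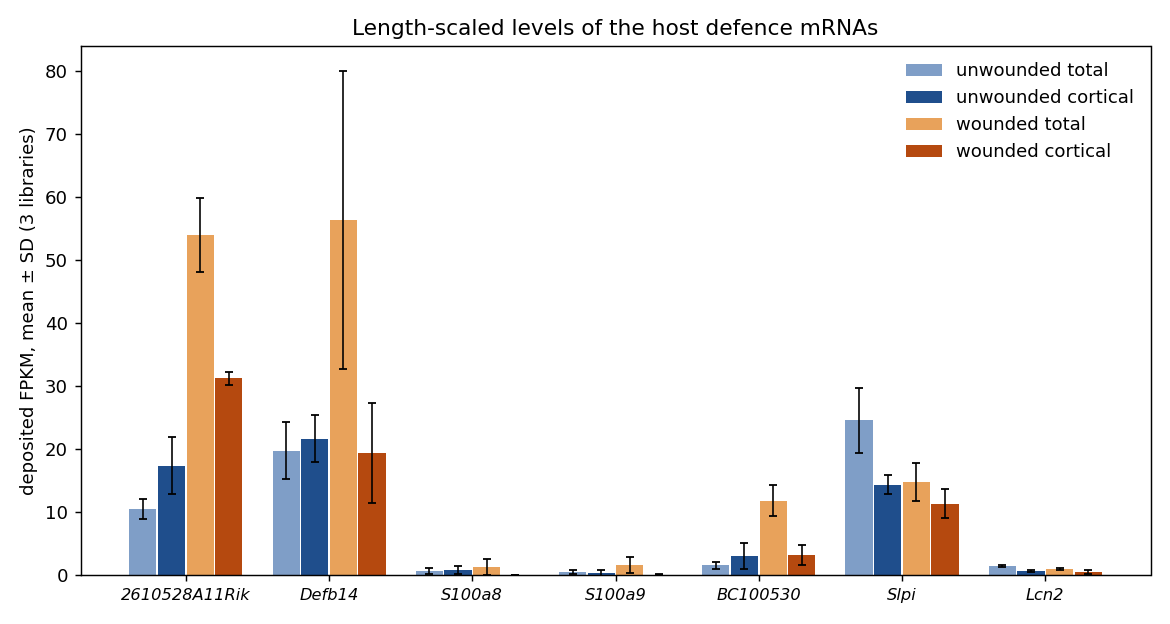
Deposited FPKM (vertical axis, linear from 0) of the 7 members in the 4 groups; bars are means and error bars SD over 3 libraries. Defb14 and 2610528A11Rik reach 56.3 and 53.9 in the wounded total group, where Slpi is at 14.7, against 24.5 for Slpi in the unwounded total group.

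The upstream regions of 2 members with opposite wound responses in the total fraction are printed from RefSeq (GRCm38.p6): 2610528A11Rik, chromosome 14, 37110102 to 37110351, minus strand, and Slpi, chromosome 2, 164356508 to 164356757, minus strand. Each has the 250 bases before the RefSeq start, 5′ to 3′, which for both genes lies inside the longer model of the count table. Entries matched 5 of the 7 members by symbol, not Defb14 and BC100530. Capitals mark matches, on either strand, to 5 motifs: a TATA box spelled as TATAAA, an NF-kB-like motif as GGGANNNNCC, an AP-1 motif as TGANTCA, a C/EBP-like motif as TTGCNNAA and a STAT-like motif as TTCNNNGAA.
2610528A11Rik upstream: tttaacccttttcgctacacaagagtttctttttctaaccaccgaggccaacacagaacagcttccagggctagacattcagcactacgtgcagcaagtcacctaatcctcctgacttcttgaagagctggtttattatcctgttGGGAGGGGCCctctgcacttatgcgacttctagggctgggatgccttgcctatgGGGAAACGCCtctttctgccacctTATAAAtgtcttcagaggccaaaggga
Slpi upstream: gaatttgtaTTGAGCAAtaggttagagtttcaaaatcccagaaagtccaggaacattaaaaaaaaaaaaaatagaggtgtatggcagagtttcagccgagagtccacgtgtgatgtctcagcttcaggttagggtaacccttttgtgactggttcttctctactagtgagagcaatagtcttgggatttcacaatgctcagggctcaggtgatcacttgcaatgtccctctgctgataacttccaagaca
The 2610528A11Rik window held a TATA box starting 27 bases before the start, and 2 NF-kB-like matches starting 105 and 51 bases before it. The Slpi window held 1 C/EBP-like match, 241 bases before its start. Among 32851 such windows of all genes, 12.4% held the TATA box, 17.6% the NF-kB-like, 6.75% the AP-1, 9.56% the C/EBP-like and 7.02% the STAT-like motif, so single matches are common. The S100a8 window held a TATA box 30 bases before its start, and those of S100a9 and Lcn2 held 1 C/EBP-like match each.

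Relatives and partners of the members were taken from 8 lists set up by function, with earlier results of these libraries known. Their p-values and shares are therefore given as a description. Calls of list genes come from the main fit only. They were not recomputed with the gene length trend removed or with a library left out. Of 12 tested genes among 28 other antimicrobial genes, 3 rose and 1 fell in the total fraction after wounding, where 8.39% of all tested genes rose and 7.20% fell. Sprr2d, a small proline-rich protein of the cornified envelope, rose by 1.94 (SE 0.30, adjusted p = 4.38e-04, edgeR), and it rose by 1.32 in the cortical fraction (SE 0.30, adjusted p = 0.0261, edgeR). Plac8 fell by 0.90 (adjusted p = 0.00139, edgeR). The beta-defensin Defb1 was lower in the cortical fraction of wounded cells (-0.75, SE 0.18, adjusted p = 0.011, edgeR), where 2 of the 12 genes were lower and 0 higher (8.03% and 7.62% of all genes). The S100 list had 13 tested genes of 16, counting S100pbp, which encodes a protein that binds S100P and is not itself an S100 protein. S100pbp averaged 25.5 CPM in wounded total and 33.6 in wounded cortical libraries. In wounded cells 5 of the 13 were lower and 1 higher in the cortical fraction, against 8.03% and 7.62% of all genes. The 5 lower genes include S100a6 (-0.995, SE 0.19, adjusted p = 0.00302, edgeR), S100a10 (-0.79, adjusted p = 0.0014) and S100a16 (-0.77, adjusted p = 0.00411). In unwounded cells 3 of the 13 were lower and 0 higher (7.59% and 6.62% of all genes), among them S100a11 (-0.82, adjusted p = 0.00299, edgeR). S100a6 rose in the total fraction after wounding (0.91, SE 0.19, adjusted p = 0.00451, edgeR), from 2567, 3539 and 2730 to 3349, 6349 and 6961 CPM.

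Of 7 tested stefins and cystatins, 4 rose and 0 fell in the total fraction after wounding (8.39% and 7.20% of all genes), and 0 passed the threshold in the cortical fraction (1.60% and 0.884%). The stefin-like BC117090, which shares windows with BC100530, rose by 1.90 (SE 0.52, adjusted p = 0.0194, edgeR), and Csta1 rose by 1.19 (SE 0.33, adjusted p = 0.0211). In wounded cells 3 of the 7 were lower and 0 higher in the cortical fraction (8.03% and 7.62% of all genes): Cstb (-1.04, adjusted p = 5.45e-04, edgeR), Cst3 (-0.80, adjusted p = 0.00136) and Cst6 (-0.71, adjusted p = 0.0139). Cst6 overlapped between the fractions, with 181 CPM in wounded total replicate 1 and 193 in wounded cortical replicate 1. The gene lengths are 603 (Cstb), 1266 (Cst3) and 3951 (Cst6) bases, against a tested median of 3873. Of 11 tested cathepsins and other proteases, 6 rose and 0 fell in the total fraction after wounding (8.39% and 7.20% of all genes). Those that rose included the kallikrein Klk8 (0.84, adjusted p = 0.00233, edgeR) and the cathepsins Ctsl (0.73, adjusted p = 0.00192) and Ctsh (0.65, adjusted p = 8.07e-04). Of 10 tested WFDC and serine protease inhibitors, 4 rose and 1 fell in the same comparison, with Serpinb1a, an inhibitor of neutrophil proteases, up by 0.86 (SE 0.10, adjusted p = 5.22e-05, edgeR) and Serpinb2 down (-1.15, adjusted p = 0.0394). Wfdc5 had 27 counts in unwounded total and 0 in unwounded cortical libraries, at least 7.42-fold lower against a floor of 3 counts over the group.

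Of the 7 tested alarmin cytokines and chemokines among 18 in the file, 3 rose and 1 fell in the total fraction after wounding, again against 8.39% and 7.20% of all genes. Tslp, a cytokine that acts on dendritic cells, rose by 3.09 (SE 0.76, adjusted p = 0.0111, edgeR), from 4, 23 and 5 counts to 105, 69 and 81 counts in replicates 1 to 3. Il18 rose by 1.83 in the total (SE 0.28, adjusted p = 4.49e-04, edgeR) and by 1.18 in the cortical fraction (SE 0.28, adjusted p = 0.0325). Il1rn, which encodes an antagonist of the IL-1 receptor, rose by 0.98 in the total fraction (SE 0.24, adjusted p = 0.0112, edgeR). Hmgb1 averaged 127 CPM in unwounded total and 72.2 in wounded total libraries. In unwounded cells it was lower in the cortical fraction (-0.77, SE 0.13, adjusted p = 9.61e-04, edgeR). The receptors and partners had 10 tested genes of 18. Of these, Anxa2 rose (0.42, adjusted p = 0.00915, edgeR) and 0 fell in the total fraction after wounding, near the 8.39% and 7.20% of all genes. All 25 genes listed as inducers or regulators of host defence gene expression were tested, among them the negative regulators Zc3h12a and Socs3. In the total fraction after wounding 3 rose and 2 fell, near the 8.39% and 7.20% of all genes. The vitamin D receptor Vdr rose by 0.94 (SE 0.09, adjusted p = 8.77e-06, edgeR). The 2 that fell were Grhl3 (-1.23, adjusted p = 0.0133) and Zc3h12a (-0.99, adjusted p = 0.0256). The medians of log2 change in the total fraction were 0.49 for antimicrobial genes, 0.14 for the S100 list with S100pbp, 0.85 for stefins and cystatins and 0.73 for the proteases. They were 0.26 for the inhibitors, 0.16 for receptors, 0.98 for cytokines and -0.08 for inducers and regulators, against -0.03 over all tested genes. In the change of the cortical-to-total ratio, 0 genes of the 8 lists were called, where 0.0221% of all tested genes were higher and 0.103% lower. With shares that low, nothing is read from this count.

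Across the 12 libraries, the gene with a log2 CPM profile most like that of 2610528A11Rik was Pkm (Pearson r = 0.97), followed by Sytl1 (0.97) and Tgfbi (0.96). For Slpi these were Gpx2 (0.96), Dut (0.96) and Hikeshi (0.95), and for Lcn2 Mrps26 (0.96), Hspb8 (0.93) and H2-Eb1 (0.91). Defb14 was closest to Gm9619 (0.93), Gm15050 (0.93) and Zfp672 (0.92), BC100530 to Gm8318 (0.94) and Rpl5-ps2 (0.93), and S100a8 to Sertad3 (0.89), Gm2225 (0.87) and C230035I16Rik (0.87). Between members r was 0.81 for Slpi with Lcn2, 0.75 for Defb14 with BC100530, 0.71 for 2610528A11Rik with BC100530 and -0.62 for 2610528A11Rik with Slpi. These correlations describe 12 libraries that share group, depth and fraction, and they carry no test.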

How the data were processed

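The authors deposited a table of raw counts per gene and a table of FPKM values (fragments scaled to gene length and library size), covering 12 libraries. The submitters' processing notes name CASAVA, HISAT2 and mm10; the counting tool and annotation release are not given in the sources used here. Per the labels, libraries were poly-A selected and not directional. No per-sample column stayed unused (0), and 0 libraries were identical.

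Counts were filtered with filterByExpr, scaled with TMM and fitted in edgeR 4.0.16 (R 4.3.3, limma 3.58.1, DESeq2 1.42.0) with the quasi-likelihood method, all 12 libraries in 1 model with 4 group means. The 5 contrasts were tested two-sided and adjusted with Benjamini-Hochberg over 13571 genes, at a threshold of 0.05. The last contrast subtracts the unwounded log2 ratio of cortical to total from the wounded one. SE is that of the log2 fold change, and a prior count of 2 was added for log2 CPM.

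The members and lists were chosen with earlier results of these data known. All 7 members are named, plus at most 3 called genes per list and contrast with the largest change, and the 3 genes most correlated with each tested member. For BC100530, 1 of these 3 is not reported here. The earlier ranking took called protein-coding genes averaging 100 counts or more whose sign matched across the 3 pairs of equal number, and kept the 5 largest changes per direction. The 8 lists held 28 antimicrobial, 16 S100 (S100pbp included), 17 stefin or cystatin, 17 protease, 18 inhibitor, 18 receptor, 22 cytokine and 25 inducer or regulator genes.

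Alternatives were RLE and library size scaling, DESeq2, no filter, only the groups compared, the replicate number as a block, a loess length trend (span 0.5) removed, limma on log2 FPKM plus 1 or plus 0.1, and each library left out. Simulated data for the unwounded cortical-to-total comparison held 200 changed genes among 13190. There edgeR recovered 52% of 2-fold and 79% of 4-fold changes, with 6.43% of calls false. False calls made up 20.1% with DESeq2 and 6.84% with limma on log2 FPKM plus 1. The counts were drawn with spreads that edgeR estimated, so these shares do not rank the tools. A simulated length slope gave 1581 edgeR calls, 91.2% false, and 128 calls, 4.69% false, once the trend was removed. That slope was set by hand and not estimated from these libraries, so the shares do not carry over to them. In the real data this comparison gave 1928 calls, and 1437 with the trend removed. Coding sequences came from GENCODE M21 and figures from matplotlib 3.10.9.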

Additional observations from a re-analysis of the deposited data

Results flagged for a closer look

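2610528A11Rik had a cortical-to-total log2 ratio that differed between wounded and unwounded cells, by -1.48 (SE 0.25) in the test of that difference itself. This value is one of those that chose the gene, so it is repeated here as a description and supports nothing. No group of 3 libraries was tested for outlying samples.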

How the results depend on the processing

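Over all alternatives, 572 of 651 recomputed member values kept their direction and their side of the threshold, 60 kept the direction and lost the call, 8 gained it and 11 changed sign; these totals include the comparisons that chose members, whose calls support nothing. The sign changes were Slpi in wounded cells, cortical against total, at 0.014 with the length trend removed and 0.013 with the replicate block added to that, and 6 values with ranges across 0 when a library was left out: Defb14 (-0.059 to 0.24) and S100a8 (-0.39 to 1.35) for unwounded cortical against total, BC100530 (-0.40 to 0.41), Defb14 (-0.51 to 0.051) and Lcn2 (-0.66 to 0.20) for wounding in the cortical fraction, and Lcn2 (-0.077 to 0.78) for the change of ratio. None of these values was called in any setting.

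Counts of called genes ranged, with each library left out, from 949 to 3151 for unwounded cortical against total (1928 with all libraries), 1084 to 3475 for wounded cortical against total (2124), 1128 to 3502 for wounding in the total fraction (2116), 108 to 1276 in the cortical fraction (337) and 4 to 413 for the change of ratio (17). The highest value of each range was that without wounded total replicate 1. With only the groups compared in the fit they were 3014, 970, 1175 and 1423 in the order of the first 4. With the length trend removed, wounded cortical against total gave 1294, and 1191 with the replicate block too. For wounding in the cortical fraction, DESeq2 gave 736, library size scaling 199 and no filter 559. For the change of ratio, DESeq2 gave 72, library size scaling 11, FPKM plus 0.1 or plus 1 gave 10 each, no filter 138 and the replicate block 10. The cause of these shifts was not tested. Library size scaling moved the median of all genes by 0.19 and 0.25 for cortical against total (unwounded, wounded) and by -0.10 for wounding in the total fraction, and turned the sign of 0 member values; 1582 genes were then higher and 469 lower in unwounded cells, against 898 and 1030.

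Same-numbered libraries deviated from their group means with correlations of -0.033 to 0.091. Libraries of unequal number were not compared, so these values cannot decide whether same-numbered fractions came from the same culture. With the replicate block, 3 in place of 4 members were past the threshold for wounded cortical against total, a comparison that chose members, and no other member count changed. The change of ratio of 2610528A11Rik, a value that chose the gene, stayed between -1.63 and -1.27 over 21 alternatives. Depth limits S100a8 and S100a9 most, with at most 27 counts in any library, and BC100530 ranged from 6 to 182 counts and Lcn2 from 11 to 83.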
